A study of Mus musculus with 18 samples.

Results

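Atria were compared with the infarcted left ventricle (LV) of the same disease model, in animals given phosphate-buffered saline (PBS). Both groups came from male C57BL/6J mice whose left anterior descending coronary artery had been ligated, and both tissues were collected at day 3 after the infarction. The comparison used 6 of 18 libraries, 3 from atria and 3 from infarcted LV, chosen by their labels alone and with every gene in the table. The other libraries were non-infarcted LV of PBS mice, used here as a further level beside single genes, and the same 3 regions of mice given liraglutide, an agonist of the glucagon-like peptide 1 receptor. Atria and infarcted LV of liraglutide mice were used to repeat the contrast in separate libraries. Age, the dose and schedule of PBS or liraglutide, whether left or right atria were taken, and how many animals stand behind a library are not stated in the sources. The labels call the 3 libraries of a group biological replicates without naming animals, so p-values measure the spread between these libraries. Every group carries the ligation, and sham-operated hearts, which the labels mention, were not analysed here.

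Atria and ventricles are built from different cardiomyocytes. Atrial myocytes secrete natriuretic peptides, use atrial isoforms of the myosin light chains and carry acetylcholine-activated potassium channels, while ventricular myocytes use their own light chains, are denser in mitochondria and depend on Iroquois family transcription factors. A ligated coronary artery starves the ventricular wall it supplies, where neutrophils and monocytes arrive within days, fibroblasts then lay down collagen, and interferon and stress responses are switched on, while the atria are supplied mainly by other branches. The contrast therefore holds a chamber difference and an injury difference at once, and the libraries cannot tell them apart. Non-infarcted LV, a ventricular tissue of the same hearts or the same group of hearts, is given beside the genes for that reason.

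Library totals were 6262832 to 18839472 counts in atria and 4280459 to 10772531 counts in infarcted LV, and 15885 to 17452 genes had a count in an atrial library against 15316 to 16311 in an infarcted library. A count of 3, the floor used below where a group is at 0, equals 0.146 to 0.473 CPM (counts scaled to library size) in atria and 0.269 to 0.683 CPM in infarcted LV. Levels are CPM scaled by TMM (trimmed mean of M values) factors over all 18 libraries, listed in the order replicate 1, 2, 3, and they compare libraries, not genes of different length. Atria and infarcted LV carried the chamber markers of their labels. Of the myeloid genes known for an infarct at this stage, Spp1 (osteopontin) and Arg1 (arginase), both chosen after their values were seen, were near 0 in both tissues, at 0.23, 2.39 and 0.473 CPM in atria against 0.996, 0.808 and 0.911 CPM in infarcted LV for Spp1, and neither passed the filter on low counts. The libraries labelled infarcted LV still held cardiomyocyte genes at high levels, though below those labelled non-infarcted LV. Myl2 reached 9002, 7655 and 7709.8 CPM in infarcted LV against 11022, 9958 and 12113 CPM in non-infarcted LV. The median log2 fold change of ventricular cardiomyocyte markers, infarcted over non-infarcted LV, was −0.81. How much viable wall the infarcted samples held is not stated, and its part in the results was not tested. Replicate 2 of the PBS atria stood apart in fat markers, with 72.9 CPM of the adipocyte hormone Adipoq (chosen after its values were seen) against 0.997 and 0.315 CPM in replicates 1 and 3.

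Of 25230 gene symbols, 13249 passed the filter and were tested. At an adjusted p below 0.05, 6925 genes differed (52.3% of those tested), 3466 higher in atria (26.2%) and 3459 lower (26.1%). The median log2 fold change over all tested genes, atria over infarcted LV, was 0.02, with quartiles of −0.40 and 0.44, so more genes differed than did not, and each list is to be read against that. The CPM ranges of the groups did not overlap for 8084 genes (61% of those tested). Small and large differences were not spread alike over the 2 directions. Differences of more than 1 on the log2 scale were 1374 higher and 1310 lower, and differences of more than 3 were 275 higher and 130 lower. Beyond 5 there were 98 higher and 16 lower, and beyond 8 there were 20 higher and 5 lower. In 17 of the genes called higher every infarcted library was at 0, against 1 called lower with every atrial library at 0. Fewer cells of a type and less RNA per cell cannot be told apart in these bulk samples.

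**Figure D1:**
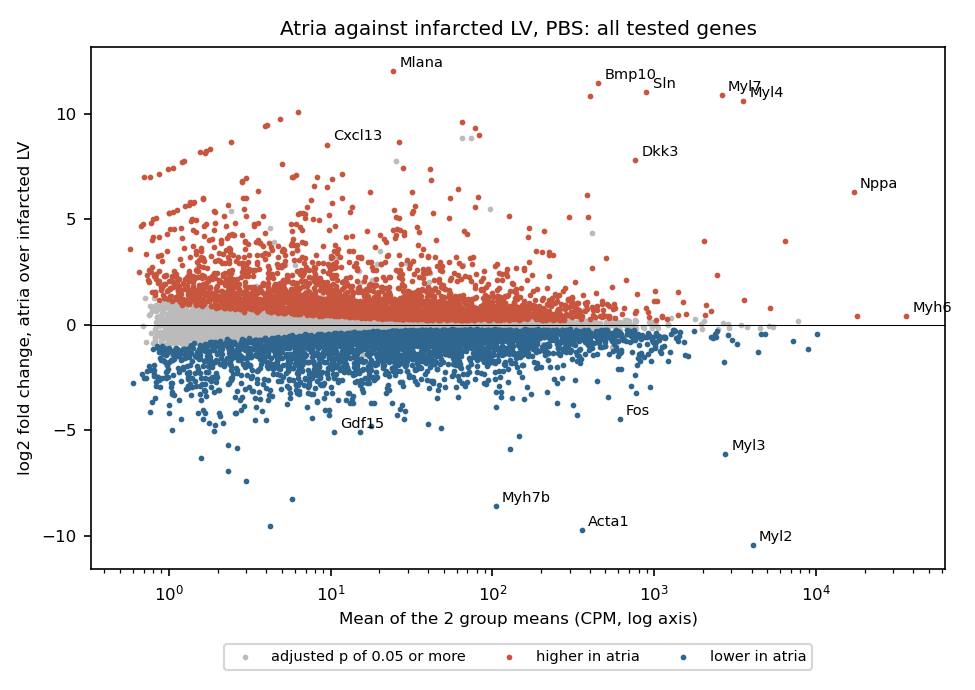
Each point is a tested gene, with the mean of its levels in PBS atria and PBS infarcted LV (CPM, log axis) on the x axis and its log2 fold change, atria over infarcted LV, on the y axis. Red points are the 3466 genes called higher in atria, blue points the 3459 called lower and grey points those not called; the upper side reaches farther from 0 than the lower side, and Myh6, the gene farthest to the right, lies close to 0.

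Most markers of the atrial myocyte were higher in atria. Of 17 atrial cardiomyocyte markers, all tested, 15 were higher and 1 lower, with a median log2 fold change of 4.57 against 0.02 over all genes. Nppa, which encodes atrial natriuretic peptide (chr4:148000722-148002079, plus strand, GRCm38), stood at 34355, 29538 and 37203 CPM in atria against 488, 495 and 296 CPM in infarcted LV. It made up 3.77% of all counts in atrial replicate 3 and 0.0304% in infarcted replicate 3. The groups lie far apart in every library, and the log2 fold change was 6.30 (SE 0.234, adjusted p = 3.22e-08).

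Several sarcomere and calcium genes were at the edge of detection in infarcted LV. Myl7, the atrial regulatory light chain (chr11:5896637-5898782, minus strand), had 5855, 4497 and 5293 CPM in atria against 3.58, 3.32 and 0 CPM in infarcted LV, a log2 fold change of 10.88 (SE 0.529, adjusted p = 2.13e-05). Myl4, the atrial essential light chain, had 7828, 6128 and 7271 CPM against 5.97, 4.13 and 2.5 CPM (log2 fold change 10.62, adjusted p = 3.04e-10). Sln, sarcolipin, which restrains the sarcoplasmic reticulum calcium pump, had 1861, 1601 and 1898 CPM in atria against 0.996, 0.987 and 0.228 CPM in infarcted LV (log2 fold change 11.02, SE 0.209, adjusted p = 2.62e-11). In each of these genes the 3 atrial libraries lie close together and infarcted replicate 3 is the lowest. Non-infarcted LV showed the same order of replicates, with 83, 46.7 and 0 CPM of Myl7 and 17.9, 14.1 and 0 CPM of Sln, so its replicates 1 and 2 held more of these atrial transcripts than any infarcted library.

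Secreted and signalling members followed. Bmp10, a ligand of the bone morphogenetic protein family that the adult heart makes in atria (chr6:87428994-87437677, plus strand), had 949, 717 and 1049 CPM in atria against 0.498, 0.269 and 0 CPM in infarcted LV (log2 fold change 11.45, SE 0.301, adjusted p = 2.28e-09). Dkk3, a secreted protein of the Dickkopf family, had 1603, 1345 and 1628 CPM against 5.58, 7.81 and 7.06 CPM (log2 fold change 7.81). Pam, the enzyme that amidates peptide hormones and is abundant in atrial granules, had 11682, 11282 and 13217 CPM against 723, 822 and 752 CPM (log2 fold change 3.98). None of the 3 had a library of one group within the range of the other. Tbx5, a T-box factor of the atria and left ventricle, had 380.2, 279.6 and 307 CPM against 14.2, 13.6 and 12.5 CPM, a log2 fold change of 4.57, and non-infarcted LV lay between them at 36.1, 34.4 and 28.4 CPM. Nr2f1 and Nr2f2, orphan nuclear receptors that set atrial identity, were higher by 1.46 and 0.61 on the log2 scale.

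The exceptions in the list were a potassium channel and a receptor. Kcna5, which carries the ultrarapid potassium current known from human atria, was lower, at 22.5, 20 and 24.3 CPM in atria against 117, 121 and 92 CPM in infarcted LV (log2 fold change −2.32, adjusted p = 3.26e-08). Adora1, the adenosine A1 receptor, had 15.7, 18.1 and 11.7 CPM against 18.5, 16.9 and 13 CPM and did not pass the test (adjusted p = 0.72). The acetylcholine-activated channel subunits Kcnj3 and Kcnj5 were both higher, by 3.45 and 2.58, and Gja5, the connexin of atria and the fast conduction system, had 88.9, 65.2 and 84.2 CPM against 8.56, 16.2 and 8.42 CPM (log2 fold change 2.78, adjusted p = 9.76e-05).

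Genes outside the marker list reached similar sizes. Mybphl, a myosin-binding protein H-like gene, had 915, 691 and 800.2 CPM in atria against 0.398, 0.628 and 0 CPM in infarcted LV (log2 fold change 10.84). Mlana, a melanocyte antigen gene, had 49.3, 42.6 and 53.7 CPM against 0 in all 3 infarcted libraries and was at least 116-fold higher than the floor of 3 counts per library. Uts2b, which encodes urotensin-related peptide, Bmp3 and the tektin gene Tekt4 were also at 0 in every infarcted library and were at least 23.5-fold, 19.5-fold and 18.8-fold higher. Fgf12, an intracellular partner of sodium channels, had 155, 158 and 185 CPM against 0.199, 0.449 and 0.228 CPM (log2 fold change 9.0). Rxfp1, the relaxin receptor, had 53.1, 48.8 and 57.4 CPM against 0, 0.18 and 0.228 CPM, a pooled ratio of 439 (95% interval 150.1 to 2132, counting error only). Tmem163, a zinc transporter gene, and Cilp2, a cartilage intermediate layer protein gene, had log2 fold changes of 9.31 and 9.61. These genes had an atrial level in every atrial library and next to none in any infarcted library.

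The ventricular program was the mirror image. Of 13 ventricular cardiomyocyte markers tested, 12 were lower in atria and 0 higher, with a median log2 fold change of −2.65. Hand1, the other member of the list, was at 0 in both tissues and was not tested. Myl2, the ventricular regulatory light chain (chr5:122100951-122113472, plus strand), had 8.59, 5.47 and 2.05 CPM in atria against 9002, 7655 and 7709.8 CPM in infarcted LV (log2 fold change −10.46, SE 0.44, adjusted p = 4.95e-06). Myl3, the matching essential light chain, had 111, 49.6 and 67.9 CPM against 5579, 5356 and 5326 CPM (log2 fold change −6.15). Every atrial library lay below every infarcted library for both light chains.

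The Iroquois factors were lower in atria throughout the family members listed. Irx4, a factor restricted to the ventricles, had 0.0767, 0 and 0 CPM in atria against 11.3, 10.8 and 12.5 CPM in infarcted LV, so that the pooled level in infarcted LV was 449 times that of atria (95% interval 80.0 to 17796, counting error only). Irx1 had 0, 0.195 and 0 CPM against 3.88, 2.96 and 4.33 CPM. Irx2, Irx3 and Irx5 had log2 fold changes of −2.95, −1.96 and −2.65, and Hey2, a Notch target of the compact ventricular wall, −1.95. Pln, phospholamban, the main brake on the calcium pump in the ventricle, had 1007, 1333 and 1318 CPM in atria against 4384, 3867 and 4254 CPM in infarcted LV (log2 fold change −1.77, adjusted p = 2.33e-07). Pln and Sln, which act on the same pump, thus stood in opposite directions. Kcne1, a potassium channel subunit, and Lbh, a cofactor of heart development, were lower by 3.51 and 2.48.

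**Figure D2:**
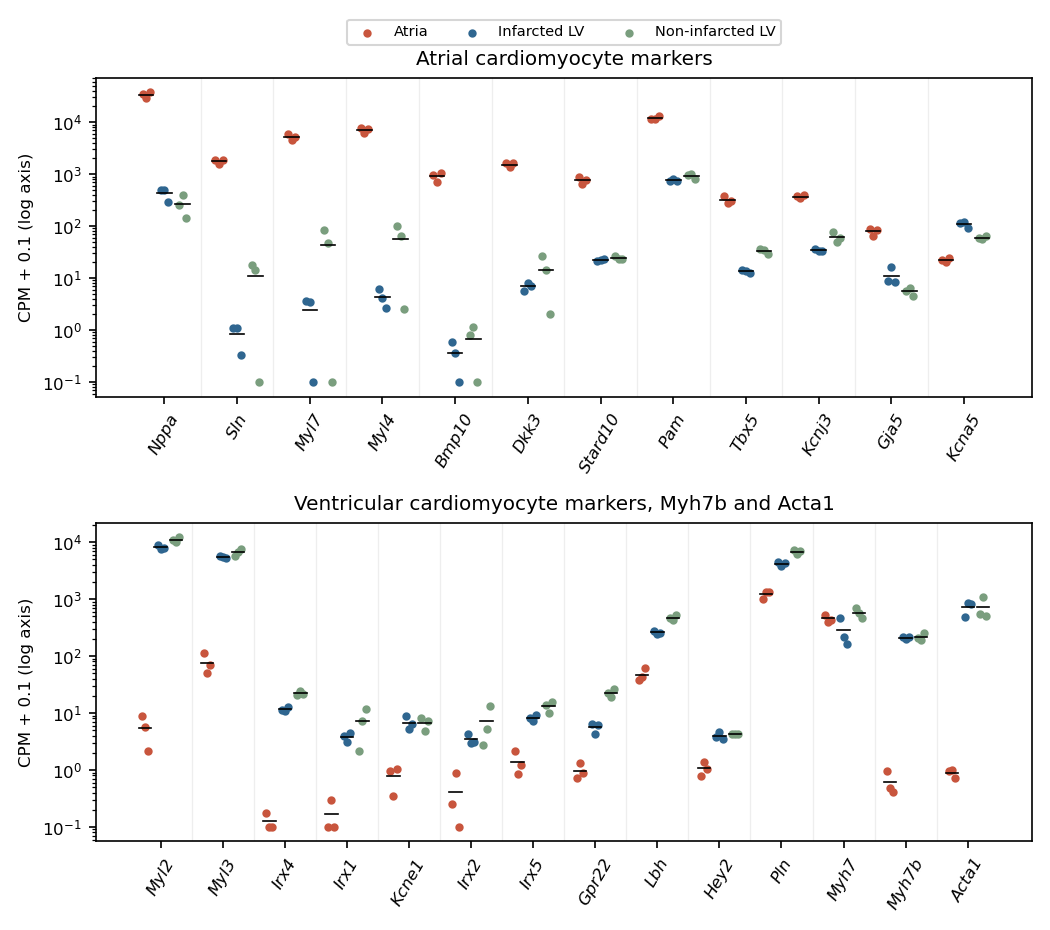
Levels of chamber genes (CPM + 0.1, log axis) in atria, infarcted LV and non-infarcted LV of PBS mice, with 3 libraries each as points and the mean as a bar. Upper panel, atrial markers, with atria far above both ventricular regions for all but Kcna5; lower panel, ventricular markers with Myh7b and Acta1, where atria lie far below, except for Myh7 (not called) and Pln, whose gap is smaller.

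Myosin genes showed how uneven the chamber difference was within a family. Of 11 heavy and light chain genes and their kinase, 6 were higher in atria and 3 lower, with a median of 0.52. Myh6, the fast alpha heavy chain that the adult mouse uses in both chambers, had 46200.3, 36204 and 41652 CPM in atria against 33984, 28714 and 30379.6 CPM in infarcted LV, which gave a log2 fold change of 0.42 (SE 0.119, adjusted p = 0.0111). The groups do not overlap, but the call was lost when infarcted replicate 2 or 3 was left out. Myh7, the slow beta heavy chain, had 531, 401 and 436 CPM against 468, 211 and 162 CPM, its groups overlapped, and it did not pass (log2 fold change 0.70, adjusted p = 0.271). Myh7b, a slow-type heavy chain gene, had 0.844, 0.39 and 0.315 CPM in atria against 212, 199 and 214 CPM in infarcted LV (log2 fold change −8.59, SE 0.185, adjusted p = 3.93e-11). Of the light chains not specific to the ventricle, Myl1 and the smooth muscle chain Myl9 were higher by 3.33 and 2.69, and Myl6 did not pass (adjusted p = 0.792).

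The shared sarcomere changed little by comparison. Of 19 sarcomere and Z-disc genes 4 were higher and 6 lower, a share close to the background, with a median of 0.00. Mybpc3, cardiac myosin-binding protein C, had 2524, 1961 and 2285 CPM in atria against 4496, 4237 and 4086 CPM in infarcted LV (log2 fold change −0.92, adjusted p = 2.11e-05). Tnnc1 and Tpm1, thin filament genes, were lower by 0.82 and 0.75. Acta1, skeletal alpha-actin, which ventricular myocytes re-express under load (chr8:123891769-123894751, minus strand), was nearly absent from atria, at 0.844, 0.878 and 0.63 CPM in atria against 482, 838 and 829 CPM in infarcted LV (log2 fold change −9.74, SE 0.333, adjusted p = 1.76e-07). Non-infarcted LV held as much Acta1 as infarcted LV, at 554, 1079 and 499 CPM.

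The promoters of 3 genes at the ends of this contrast are printed because their chamber difference is among the widest and cardiac factors have known recognition motifs. Each line is the 250 bases before the transcription start from the RefSeq promoter table (GRCm38.p6), 5′ to 3′ on the gene's strand. Capitals mark AGATAA on either strand, a GATA factor motif, or the CArG box of serum response factor (CC, 6 bases of A or T, GG).
Bmp10: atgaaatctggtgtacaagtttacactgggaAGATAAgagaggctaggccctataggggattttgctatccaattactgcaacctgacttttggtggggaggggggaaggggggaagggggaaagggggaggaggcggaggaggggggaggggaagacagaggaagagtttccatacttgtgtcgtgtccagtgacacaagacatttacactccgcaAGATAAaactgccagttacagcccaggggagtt
Myl7: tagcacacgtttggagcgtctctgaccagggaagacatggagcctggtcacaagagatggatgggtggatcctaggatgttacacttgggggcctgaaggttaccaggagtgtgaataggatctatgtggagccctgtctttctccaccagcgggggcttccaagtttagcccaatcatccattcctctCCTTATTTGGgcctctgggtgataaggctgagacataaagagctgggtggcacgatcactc
Acta1: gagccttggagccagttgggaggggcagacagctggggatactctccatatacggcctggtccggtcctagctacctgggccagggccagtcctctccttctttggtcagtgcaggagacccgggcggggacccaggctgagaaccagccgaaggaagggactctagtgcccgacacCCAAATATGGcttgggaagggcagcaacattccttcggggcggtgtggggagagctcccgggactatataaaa
The Bmp10 promoter (chr6:87428744-87428993, plus strand) held 2 matches to AGATAA, ending 213 and 27 bases before the start. The Myl7 promoter (chr11:5898783-5899032, minus strand) and the Acta1 promoter (chr8:123894776-123895025, minus strand) each held a CArG box, ending 51 and 63 bases before the start. Among promoters of tested genes 5.86% held AGATAA and 1.19% a CArG box, against 10.3% and 1.40% of all 27025 promoters listed. The shares were 6.61% and 1.14% for genes called higher and 5.34% and 1.40% for genes called lower. A CArG box thus stood upstream of a gene at either end of the contrast. These matches are descriptions of the letters in the window, not sites in use.

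Electrical genes were mostly on the atrial side. Of 15 sinus node and conduction genes 11 were higher and 3 lower (median 2.13), and of 18 potassium channel genes 10 were higher and 5 lower (median 0.77). Hcn2, a pacemaker channel gene, was lower by 1.40. Cacna2d2, a calcium channel subunit, had 188, 128 and 164 CPM in atria against 3.19, 1.71 and 2.5 CPM in infarcted LV (log2 fold change 6.03), and Cacna1d, the low-voltage L-type channel of the node, was higher by 3.19. Tbx3, the repressor that marks the node, was lower by 0.80, so the list did not move as a block.

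Subunits of the ATP-sensitive potassium channel split. Abcc8, which encodes the SUR1 subunit, had 244, 175 and 193 CPM in atria against 39.1, 37.4 and 36.4 CPM in infarcted LV (log2 fold change 2.44). Abcc9, which encodes SUR2, had 39.1, 32.9 and 34 CPM against 476, 446 and 473 CPM (log2 fold change −3.71, adjusted p = 1.79e-10). Abcc9 and Kcnj8 are also pericyte genes, and the pericyte markers described below moved in the same direction, a part in the Abcc9 result that was not tested. Kcnh2, the rapid delayed rectifier, had 317, 237 and 261 CPM against 44.9, 39.9 and 43 CPM (log2 fold change 2.67), and Kcnip2, a subunit of the transient outward channel, was lower by 1.97.

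Calcium handling genes were 8 higher and 5 lower of 16, with a median of 0.25. Besides Sln and Pln, Slc8a1, the sodium-calcium exchanger, was higher at 596, 612 and 841 CPM in atria against 310.2, 343 and 371 CPM in infarcted LV (log2 fold change 1.00), and Camk2d, the calmodulin-dependent kinase, by 0.87. Cardiac neurohormone receptors were 6 higher and 4 lower of 12 (median 0.15). Chrm2, the muscarinic receptor through which the vagus slows the heart, had 76, 48.8 and 56.6 CPM against 12.2, 10.2 and 18.7 CPM (log2 fold change 2.21). Gcgr, the glucagon receptor, was low in both, at 4.68, 3.56 and 2.84 CPM against 0.0996, 0.269 and 0 CPM (log2 fold change 4.50), and Gipr, the receptor of the incretin GIP, was higher by 2.21. Agtr1a, the angiotensin receptor, and Ednrb, an endothelin receptor, were lower by 1.66 and 1.39. Glp1r, the receptor liraglutide acts on, had 1.46, 0.537 and 1.26 CPM in atria against 0 in every infarcted library and did not pass the filter. Its 38 counts in atria stand at least 2.60-fold above the floor, a value set by the choice of 3 counts per library.

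The natriuretic system was split between its members. Of 16 natriuretic and muscle stress genes 7 were higher and 7 lower, with a median of −0.09. Nppb, which encodes brain natriuretic peptide and rises in stressed ventricle, had 897, 692 and 1177 CPM in atria against 1012, 1039 and 981 CPM in infarcted LV and did not pass (log2 fold change −0.13, adjusted p = 0.527). The atrial range enclosed the infarcted one, in contrast to Nppa. Npr3, the clearance receptor, had 136, 134 and 138 CPM against 14.5, 14.8 and 15.3 CPM (log2 fold change 3.20), and Corin, the protease that processes the atrial peptide, had 637, 599 and 699.5 CPM against 236, 201 and 250.5 CPM (log2 fold change 1.5). Npr1, the signalling receptor, was lower by 0.59. Gdf15, a stress cytokine, had 0.537, 0.634 and 0.473 CPM in atria against 16.5, 20.8 and 23.7 CPM in infarcted LV (log2 fold change −5.11, adjusted p = 1.07e-08).

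**Figure D3:**
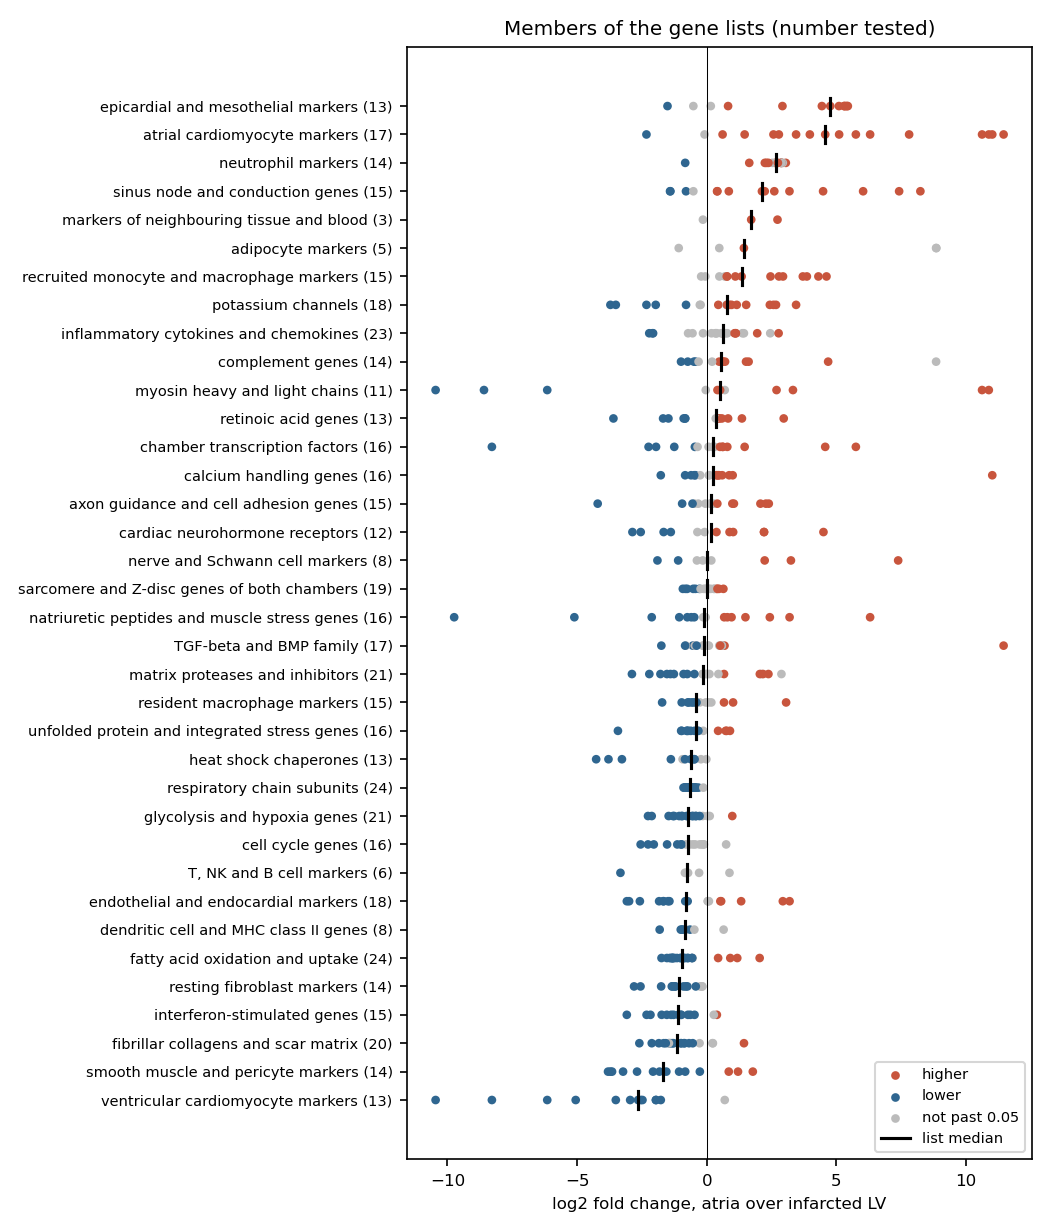
Log2 fold change of every tested member of each gene list (x axis, atria over infarcted LV; number tested in parentheses), with a black tick at the list's median. Atrial and epicardial lists lie to the right and ventricular, metabolic, fibroblast and pericyte lists to the left, and the cytokine list reaches to both sides.

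Genes of oxidative metabolism were mostly lower in atria. Of 24 respiratory chain subunits 23 were lower and 0 higher, with a median of −0.63, and of 24 genes of fatty acid uptake and oxidation 19 were lower and 4 higher, with a median of −0.96. Fabp3, the heart fatty acid binding protein, had 569, 536 and 582 CPM in atria against 1887, 1856 and 1910.3 CPM in infarcted LV (log2 fold change −1.74, adjusted p = 1.77e-08). Acadm, the medium-chain acyl-CoA dehydrogenase, had 440.2, 483 and 480.0 CPM against 1228, 1129 and 1183 CPM (log2 fold change −1.33). Ndufa9, a subunit of complex I, had 279, 277 and 293 CPM against 515, 489 and 503 CPM (log2 fold change −0.82). These genes have replicate ranges that are narrow next to the gap. Cyc1, of complex III, and Cox8b, of complex IV, were lower by 0.75 and 0.89. The summed level of the respiratory list was 20641, 19525 and 21330 CPM in atria, 29518, 27760.3 and 28488 CPM in infarcted LV, and 33251 to 38078 CPM in non-infarcted LV.

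The 4 members of the fatty acid list that were higher had different roles. Pdk4, the kinase that shuts off pyruvate dehydrogenase, had 4855, 4439 and 5661 CPM in atria against 2486, 1875 and 2252 CPM in infarcted LV (log2 fold change 1.18). Ucp3, an uncoupling protein, had 65.2, 78.5 and 81 CPM in atria against 23.3, 13.5 and 17.8 CPM in infarcted LV (log2 fold change 2.04), while non-infarcted LV held 178, 169 and 134 CPM. Slc27a1, a fatty acid transporter, and Ppara, a nuclear receptor that activates fatty acid oxidation genes, were higher by 0.91 and 0.44. Glycolysis and hypoxia genes were lower too, 17 of 21 with 1 higher (median −0.72). Vegfa, the hypoxia-induced growth factor of vessels, had 303, 309 and 369 CPM against 833, 794 and 715 CPM (log2 fold change −1.26). Egln3, an oxygen sensor that hypoxia induces, had 23.1, 26.2 and 34.4 CPM against 114, 144 and 139 CPM (log2 fold change −2.26). Ogdhl, a tissue-specific oxoglutarate dehydrogenase subunit, had 4.76, 4.39 and 2.99 CPM against 243, 230.3 and 283 CPM, and non-infarcted LV held 332, 323 and 318 CPM (log2 fold change −5.89 between atria and infarcted LV).

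Neutrophil markers were higher in atria than in infarcted LV. Of 14 tested, 9 were higher and 1, G0s2, was lower, with a median of 2.69. Lcn2, lipocalin 2 of neutrophil granules, had 146, 266 and 203 CPM in atria against 33.2, 51 and 40.1 CPM in infarcted LV (log2 fold change 2.31, adjusted p = 0.000642). Csf3r, the receptor of granulocyte colony-stimulating factor, had 38.4, 82.5 and 83.7 CPM against 8.36, 7.45 and 20.5 CPM (log2 fold change 2.64, adjusted p = 0.0157). Mmp9, the gelatinase of neutrophil granules, had 6.9, 16.7 and 15.9 CPM against 2.39, 1.8 and 4.1 CPM (log2 fold change 2.38). Atrial replicate 1 was the lowest of its group and infarcted replicate 3 the highest of its group for Csf3r and Mmp9, and the groups did not overlap. The summed level of the list was 455, 1215 and 1010.0 CPM in atria against 137, 168 and 280.3 CPM in infarcted LV, and at most 139 CPM in non-infarcted LV. The count of calls rested on single libraries, since the 10 called members fell to 5 without atrial replicate 2, 4 without atrial replicate 3, and 2 without infarcted replicate 1 or without infarcted replicate 2. S100a9, which was named after its values were seen, is a calprotectin subunit. It had 85.2, 260.0 and 216 CPM in atria against 13, 18.5 and 50.8 CPM in infarcted LV (log2 fold change 2.88, adjusted p = 0.0359).

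Monocyte genes stood on the same side. Of 15 tested markers of recruited monocytes and macrophages 11 were higher in atria and 0 lower (median 1.35). Among the 11, Trem2, Fcgr1, Ccr2 and Itgam (named for their lost calls) lost the call in 7, 5, 4 and 4 of 14 alternative settings. All of these lost it without infarcted replicate 1 and without infarcted replicate 2. Lgals3, galectin 3, had 119.7, 131 and 148 CPM in atria against 6.27, 7.63 and 5.69 CPM in infarcted LV (log2 fold change 4.31, adjusted p = 3.71e-10). Saa3, an acute phase protein, had 8.82, 19.4 and 8.98 CPM against 0.597, 0.449 and 0.455 CPM (log2 fold change 4.62), and Ly6c2, the antigen of inflammatory monocytes, had 2.99, 6.39 and 2.36 CPM against 0.199, 0.269 and 0.455 CPM (log2 fold change 3.86). All atrial libraries exceeded all infarcted libraries for these 3 genes. Mesothelial cells also express Lgals3 and Saa3, and the epicardial and mesothelial markers described below were higher in atria as well, a part in these values that was not tested. The summed level of the monocyte list gave a narrower gap, with 458, 666 and 476 CPM in atria against 419, 265 and 317 CPM in infarcted LV.

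Resident macrophage and antigen presentation genes did not follow. Resident macrophage markers were 3 higher and 7 lower of 15 (median −0.39). Their summed level overlapped, at 801, 822 and 666 CPM in atria against 656, 674 and 702 CPM in infarcted LV. Of the 7, Csf1r, Cbr2, Adgre1, Folr2 and C1qc are given for their lost calls. They lost the call in 6, 2, 1, 1 and 1 of 14 alternative settings. Vsig4 and Lyve1, genes of long-lived tissue macrophages of which Lyve1 also marks lymphatic vessels, were higher, with 11.5, 11.6 and 8.83 CPM in atria against 0.996, 1.62 and 1.14 CPM in infarcted LV for Vsig4 (log2 fold change 3.06) and a log2 fold change of 1.02 for Lyve1. Cx3cr1, the fractalkine receptor, C1qa and Adgre1, the F4/80 antigen, were lower by 1.72, 0.69 and 0.73. Dendritic cell and MHC class II genes were 5 lower and 0 higher of 8 tested (median −0.86), among them Clec9a, of cross-presenting dendritic cells, at −1.81 and Cd74, the invariant chain, with 81.5, 86.8 and 94.6 CPM against 147, 129.6 and 235 CPM (log2 fold change −0.95). Infarcted replicate 3 was the highest for Cd74. The count of 5 was 3 without infarcted replicate 1 and 8 (2 higher and 6 lower) with all 18 libraries in the fit. Lymphocyte markers were scarce, with 6 of 15 tested, and Cd4 was the 1 called, lower by 3.33.

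Cytokines ran in both directions. Of 23 tested, 7 were higher and 3 lower in atria (median 0.61). The other 13 were not called, so the called share was below the 52.3% of all tested genes. Il33, an alarmin of stromal cells, had 154, 219.8 and 171 CPM in atria against 27.6, 27.2 and 24.6 CPM in infarcted LV (log2 fold change 2.77, adjusted p = 2.5e-08). Ccl2, the main monocyte attractant, had 68.9, 102 and 60.1 CPM against 44, 32 and 34.4 CPM (log2 fold change 1.07). Cxcl13, which attracts B cells, had 17.2, 19.9 and 19.7 CPM against 0, 0 and 0.228 CPM, a pooled ratio of 486 (95% interval 86.9 to 19203, counting error only). On the other side Cxcl12, which retains CXCR4-bearing cells, had 80.4, 73.7 and 59.9 CPM in atria against 329, 308 and 264 CPM in infarcted LV (log2 fold change −2.07), and Ccl3 and Tnf were lower by 2.22 and 2.09 at low levels. Il6 overlapped, with 26, 83.9 and 62.4 CPM against 72.3, 115 and 97 CPM (adjusted p = 0.29). Without atrial replicate 1 the list had 18 called members, 15 higher and 3 lower. Complement genes were 7 higher and 4 lower of 14 (median 0.55), led by C2, with 14.3, 28 and 18.8 CPM in atria against 1.1, 0.359 and 1.14 CPM in infarcted LV (log2 fold change 4.68, adjusted p = 1.17e-05).

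**Figure D4:**
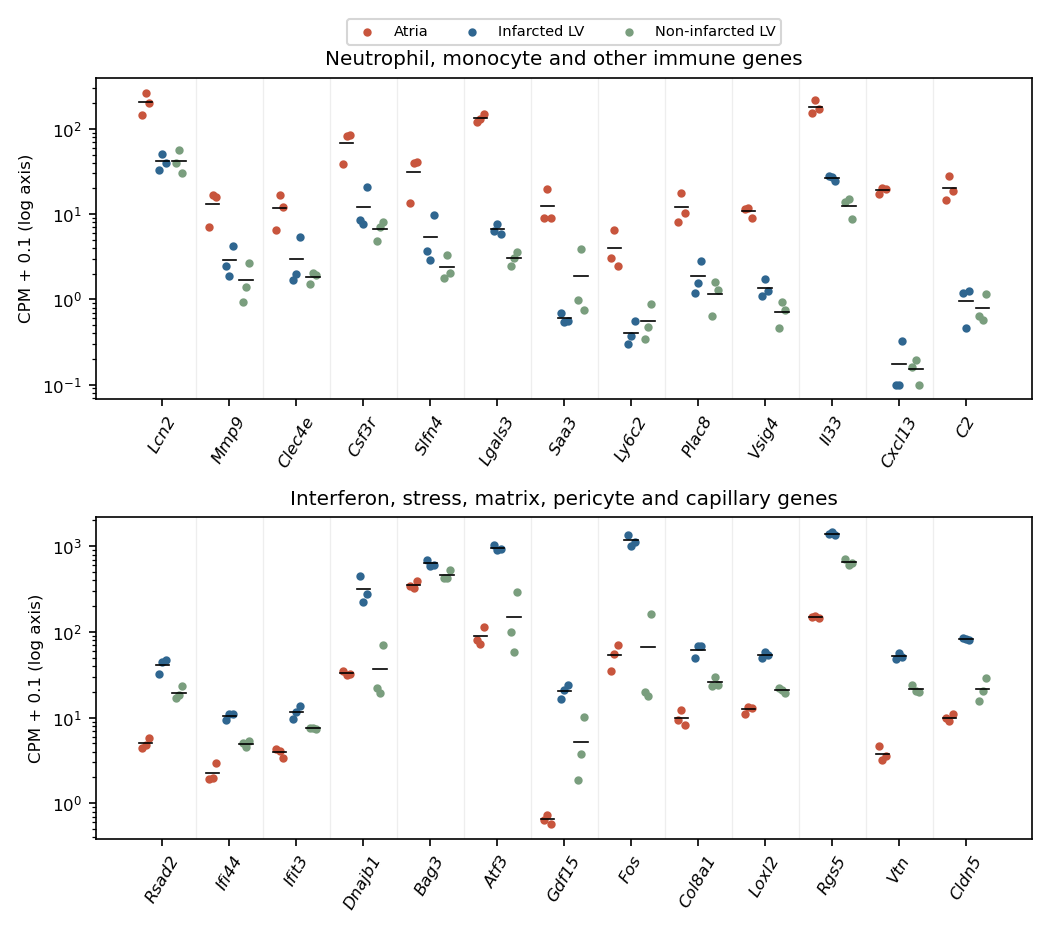
Levels (CPM + 0.1, log axis) of immune genes higher in atria (upper panel) and of interferon, stress, matrix, pericyte and capillary genes lower in atria (lower panel), in atria, infarcted LV and non-infarcted LV of PBS mice, with 3 libraries each as points and the mean as a bar. Non-infarcted LV lies near infarcted LV for most genes above, and for Dnajb1, Atf3 and Fos its replicate 3 lies above its other libraries.

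Interferon-stimulated genes went the other way from the neutrophil genes. Of 15 tested, 13 were lower in atria and 1 higher, with a median of −1.10. Rsad2, viperin, an antiviral enzyme, had 4.37, 4.68 and 5.67 CPM in atria against 32.2, 44.2 and 46.9 CPM in infarcted LV (log2 fold change −3.08, SE 0.171, adjusted p = 4.16e-08). Ifit2, which binds foreign RNA, had 3.07, 4.93 and 4.26 CPM against 14.2, 20 and 22.3 CPM (log2 fold change −2.17), and Ifit3, its partner, had 4.22, 3.95 and 3.31 CPM against 9.56, 11.5 and 13.4 CPM (log2 fold change −1.54). Atria were below every infarcted library in each. Ifi44 and the guanylate-binding protein Gbp3 were lower by 2.32 and 1.37. The 1 member that was higher was Oasl2, at 20.2, 24 and 24 CPM against 17.4, 18.2 and 15.9 CPM (log2 fold change 0.39, adjusted p = 0.0182), a call lost without atrial replicate 2, without infarcted replicate 3 and with DESeq2.

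The interferon genes carry a known promoter element, so the windows of those named above that hold it are shown. The element searched was GAAA, 2 bases of any kind and GAAA on either strand, the core of the interferon-stimulated response element, and it is in capitals. In the windows shown it lies on the opposite strand, so each copy reads TTTC, 2 bases and TTTC.
Rsad2: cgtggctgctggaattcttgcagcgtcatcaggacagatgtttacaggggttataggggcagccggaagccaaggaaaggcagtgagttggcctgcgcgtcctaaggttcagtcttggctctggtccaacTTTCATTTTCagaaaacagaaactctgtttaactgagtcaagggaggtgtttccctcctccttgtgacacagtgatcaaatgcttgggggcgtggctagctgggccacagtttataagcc
Ifit3: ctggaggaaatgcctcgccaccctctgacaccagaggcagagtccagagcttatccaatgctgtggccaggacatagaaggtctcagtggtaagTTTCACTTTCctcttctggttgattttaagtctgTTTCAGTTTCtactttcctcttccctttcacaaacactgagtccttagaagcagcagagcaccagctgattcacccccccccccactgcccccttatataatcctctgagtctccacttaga
Gbp3: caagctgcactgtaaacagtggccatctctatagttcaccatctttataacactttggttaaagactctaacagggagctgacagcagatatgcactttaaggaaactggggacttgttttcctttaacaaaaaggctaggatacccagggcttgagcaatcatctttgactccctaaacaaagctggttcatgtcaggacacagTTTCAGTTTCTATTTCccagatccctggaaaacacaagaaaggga
The Rsad2 window (chr12:26456453-26456702, minus strand) held 1 match, ending 110 bases before the start, the Ifit3 window (chr19:34583279-34583528, plus strand) 2, ending 146 and 112 bases before it, and the Gbp3 window (chr3:142559794-142560043, plus strand, the first of 2 starts listed) 2 that overlap, ending 35 and 29 bases before it. Of the 13 list promoters available, 8 held a match (61.5%), against 3.04% of all promoters, 2.61% of the promoters of tested genes, 3.35% of the promoters of genes called lower in atria and 2.40% of those called higher. Ifit2 and Ifi44 had no match within these 250 bases. The list was assembled as interferon targets, so its share describes the list and says nothing of the contrast.

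Stress genes were also on the infarcted side. Heat shock chaperones were 9 lower and 0 higher of 13 (median −0.61), and unfolded protein and integrated stress genes 9 lower and 4 higher of 16 (median −0.42). Dnajb1, a co-chaperone that heat shock factor induces, had 34.7, 31.1 and 32.2 CPM in atria against 445, 226 and 273 CPM in infarcted LV (log2 fold change −3.27, adjusted p = 0.00012). Atf3, a transcription factor of the integrated stress response, had 79.4, 71.6 and 115 CPM against 1024, 895 and 922 CPM (log2 fold change −3.42, adjusted p = 2.03e-07). Fos, an immediate early factor, had 35, 55.5 and 69.5 CPM against 1365, 1018 and 1131 CPM (log2 fold change −4.47, SE 0.282, adjusted p = 2.1e-05). For all 3 the atrial libraries lay below the infarcted ones, and non-infarcted replicate 3, at 70.9, 291 and 161 CPM, stood above the other non-infarcted libraries, which held 21.9 and 19.1 CPM of Dnajb1, 98.8 and 58 CPM of Atf3, and 20 and 17.6 CPM of Fos. Immediate early and heat shock genes respond to handling of tissue, and times between dissection and lysis are not stated. Hspa5, the main chaperone of the endoplasmic reticulum, was lower by 0.71. Xbp1, the splicing-activated factor of the unfolded protein response, and Asns, asparagine synthetase, were higher by 0.77 and 0.73.

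Matrix and stromal genes were lower in atria. Of 20 fibrillar collagen and scar matrix genes 15 were lower and 1 higher (median −1.14), of 14 resting fibroblast markers 11 were lower and 0 higher (median −1.05), and of 21 matrix proteases and inhibitors 9 were lower and 4 higher (median −0.14). Col8a1, a short-chain collagen of injured vessels and scars, had 9.2, 12.3 and 8.2 CPM in atria against 49.8, 68.2 and 68.3 CPM in infarcted LV (log2 fold change −2.60, adjusted p = 5.57e-07). Loxl2, which crosslinks collagen, had 10.9, 13.3 and 12.9 CPM against 48.9, 58.7 and 53.7 CPM (log2 fold change −2.12), and Sparc, a collagen chaperone of the matrix, had 329, 394 and 344 CPM against 799, 1051 and 804 CPM (log2 fold change −1.31). The groups were apart in all 3. Smoc2, of resting fibroblasts, had 23.6, 28 and 14.8 CPM against 160.3, 148 and 169 CPM (log2 fold change −2.80), and Cilp, a matrix protein of pressure-loaded fibroblasts, 2.07, 3.03 and 1.73 CPM against 38.5, 77.4 and 47.6 CPM (log2 fold change −4.48). The member that was higher in atria was Col12a1, a fibril-associated collagen, with 10.4, 23.4 and 13.7 CPM against 5.48, 6.73 and 5.46 CPM (log2 fold change 1.44). Timp1, an inhibitor of matrix proteases that inflammation induces, was higher by 2.17, while Timp4, the inhibitor most abundant in heart muscle, had 18, 16.3 and 13.4 CPM against 115, 121 and 122 CPM (log2 fold change −2.88).

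Cell cycle genes were low in both tissues, and 7 of 16 tested were lower in atria with 0 higher (median −0.73). Mki67, a mark of dividing cells, had 1.92, 2.39 and 2.68 CPM in atria against 7.57, 12.1 and 8.42 CPM in infarcted LV (log2 fold change −2.04), and Cenpf, a kinetochore gene, was lower by 2.55. The list had 11 called members, all lower, with no filter on low counts, and 5, of which 1 was higher, without infarcted replicate 2. Of the 7, Ccna2, a cyclin, lost its call with DESeq2, without atrial replicate 2 and without infarcted replicate 2. Tpx2 and Kif11 (named for their lost calls) lost the call in 8 and 5 of 14 alternative settings.

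Endothelial genes differed in both directions. Of 18 endothelial and endocardial markers 10 were lower in atria and 5 higher (median −0.78). Cldn5, the endothelial claudin, had 9.82, 8.98 and 10.9 CPM in atria against 84.5, 83.4 and 79.5 CPM in infarcted LV (log2 fold change −3.08). Kdr, the main receptor of vascular endothelial growth factor, had 74, 62.5 and 69 CPM against 372, 425 and 431 CPM (log2 fold change −2.58), and Flt1, its decoy receptor, and Gpihbp1, the capillary anchor of lipoprotein lipase, were lower by 1.83 and 1.68. Cdh5, the endothelial cadherin, was lower by 1.5. On the other side Plvap, of endothelial diaphragms, had 123, 100.4 and 106 CPM in atria against 12.9, 14.3 and 16.4 CPM in infarcted LV (log2 fold change 2.94), and Vwf, von Willebrand factor, had 481, 421 and 425 CPM against 183, 160.1 and 186 CPM (log2 fold change 1.33). Npr3, described above, and Emcn and Cgnl1, at 0.56 and 0.53, were the other 3 that were higher.

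Most smooth muscle and pericyte markers were lower. Of 14 smooth muscle and pericyte markers 11 were lower and 3 higher (median −1.69), and the summed level was 734, 654 and 699.8 CPM in atria against 2696, 2767 and 2679.9 CPM in infarcted LV, with 1682, 1522 and 1609 CPM in non-infarcted LV. Rgs5, a G protein regulator of pericytes, had 148, 154 and 144 CPM in atria against 1383, 1466 and 1337 CPM in infarcted LV (log2 fold change −3.23, adjusted p = 2.09e-10). Vtn, vitronectin, had 4.53, 3.12 and 3.47 CPM against 48.1, 56.1 and 50.8 CPM (log2 fold change −3.81), and Higd1b and Kcnj8 were lower by 3.65 and 2.69. The 3 that were higher were Myocd, a cofactor of serum response factor (log2 fold change 1.21), Cnn1, a calponin of smooth muscle (1.78), and Cspg4, the NG2 proteoglycan of pericytes (0.85).

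Epicardial and mesothelial markers were higher. Of 13 tested, 10 were higher and 1 lower, with a median of 4.77. Msln, mesothelin, had 70.1, 99.7 and 82.1 CPM in atria against 2.79, 2.06 and 0.911 CPM in infarcted LV (log2 fold change 5.30, adjusted p = 6.92e-08). Krt18, a keratin of simple epithelia, had 31.1, 35.8 and 29.5 CPM against 2.59, 0.808 and 0.683 CPM (log2 fold change 4.44), and Upk1b, a uroplakin of the mesothelium, had 8.9, 15.4 and 14 CPM against 0.597, 0.18 and 0 CPM (log2 fold change 5.31). The member that was lower was Wt1, the epicardial factor that injured hearts switch on, also in endothelium, with 8.67, 11.6 and 9.77 CPM against 30.4, 28.2 and 28 CPM (log2 fold change −1.51), and non-infarcted LV was close to atria at 9, 7.19 and 10.3 CPM.

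Markers of tissue that could be carried along were checked in the same libraries. Of 12 adipocyte markers 5 passed the filter, and 1, the lipid droplet gene Plin4, was called, higher by 1.44. Car3, a carbonic anhydrase abundant in fat, had 6.29, 436 and 1.58 CPM in the 3 atrial libraries and Cfd, adipsin, 3.45, 383 and 1.42 CPM, so only replicate 2 was high. Ucp1 of brown fat (chosen after its values were seen) was at 81.6 CPM in replicate 2 against 0 in the other atrial libraries. Cidea, a lipid droplet gene, had 12.1, 65.6 and 8.2 CPM in atria against 22.8, 21.2 and 20.9 CPM in infarcted LV, was not called with all libraries (log2 fold change 0.49), and was lower by 1.05 without atrial replicate 2. Nerve and Schwann cell markers were 3 higher and 2 lower of 8 tested. Th, which makes catecholamines in sympathetic fibres, had 1.84, 1.71 and 2.36 CPM in atria against 0 in every infarcted library, at least 4.73-fold above the floor, and Dbh, the next enzyme, had 16.7, 8.64 and 12.8 CPM against 3.68, 1.8 and 2.5 CPM (log2 fold change 2.24). Mbp, a myelin gene, was higher by 3.25. The 2 that were lower were Stmn2, a neuronal tubulin regulator, with 1.99, 3.17 and 3.47 CPM in atria against 10.6, 12.1 and 8.65 CPM in infarcted LV (log2 fold change −1.90), and Cdh19, a cadherin of Schwann cells, at −1.10. Of 17 markers of skeletal muscle, lung, thyroid, thymus and blood 3 were tested and 2 were called, the fast troponins Tnni2 and Tnnt3, higher by 2.73 and 1.72, while 8 of the 17 were at 0 in every atrial library and 8 in every infarcted library.

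Developmental signalling lists were split. Retinoic acid genes were 6 higher and 6 lower of 13 (median 0.35). Aldh1a3, which makes retinoic acid, had 23, 27.5 and 18.4 CPM in atria against 3.09, 2.96 and 2.73 CPM in infarcted LV (log2 fold change 2.97), and Cyp26b1, which degrades it, had 1.53, 0.976 and 0.946 CPM against 9.36, 7.27 and 29.1 CPM (log2 fold change −3.60). Infarcted replicate 3 was well above its group for Cyp26b1. Of the other enzymes that make retinoic acid, Aldh1a2 was higher by 0.82 and Aldh1a1 (chosen after its values were seen) lower by 0.83, a call lost without atrial replicate 1. Rarg and Rxrg, nuclear receptors of the pathway, were lower by 1.68 and 1.48. The TGF-beta and BMP family was 3 higher and 4 lower of 17 (median −0.11), with Bmp10 at one end and Bmp7, lower by 1.75, at the other. Its other 10 members were not called, again a smaller called share than the 52.3% of all tested genes. Axon guidance and adhesion genes were 6 higher and 3 lower of 15 (median 0.15). Slit3, a secreted guidance ligand, had 165, 109 and 125 CPM in atria against 20.4, 28.1 and 27.8 CPM in infarcted LV (log2 fold change 2.40), while its receptor Robo2 had 0.0767, 0.293 and 0 CPM against 2.99, 4.4 and 2.28 CPM (log2 fold change −4.21).

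Chamber transcription factors beyond the marker lists were 7 higher and 5 lower of 16 with those lists' factors included (median 0.26). Hand2, a factor of the second heart field and its derivatives, had 34.2, 31.1 and 32.5 CPM in atria against 19.2, 20.5 and 15.9 CPM in infarcted LV (log2 fold change 0.80). Hey1, a Notch target of atrial and endothelial cells, was lower, at 5.83, 5.08 and 3.47 CPM against 23.9, 25.2 and 20.9 CPM (log2 fold change −2.24). Prrx1, a mesenchymal factor, was lower by 1.25, in the direction of the fibroblast list.

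Non-infarcted LV gave a further level for the lists. For interferon genes the median log2 fold change was −1.10 for atria over infarcted LV, −0.29 for atria over non-infarcted LV and 0.95 for infarcted over non-infarcted LV. For scar matrix genes the same medians were −1.14, 0.30 and 1.33, and for atrial cardiomyocyte markers 4.57, 3.82 and −0.56. Of the immune lists, those of neutrophils, recruited monocytes and cytokines stood higher in atria than in either ventricular region by these medians. They were 2.69, 3.53 and 0.85 for neutrophil markers, 1.35, 2.09 and 0.64 for recruited monocyte markers, and 0.61, 2.44 and 1.77 for cytokines. Other immune lists were lower in atria than in infarcted LV. The medians were −0.39, 0.39 and 0.77 for resident macrophage markers and −0.86, 0.03 and 0.87 for dendritic cell and MHC class II genes. Lymphocyte markers, with 6 tested, had −0.76, 1.68 and 1.29. These comparisons share libraries, so their values are set side by side and not tested against each other, and with library totals alone as the scale the median of all genes in atria over non-infarcted LV was 0.14, against 0.01 with TMM factors.

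The contrast was repeated in 3 atrial and 3 infarcted libraries of liraglutide mice, which the PBS test did not use. There 5817 of 13457 genes were called (43.2%), 2968 higher (22.1%) and 2849 lower (21.2%). Of the 3466 genes called higher in PBS atria, 3431 were tested under liraglutide, 3387 had the same sign (98.7%), 2529 were called higher (73.7%) and 0 were called lower. Of the 3459 genes called lower, 3441 were tested, 3362 had the same sign (97.7%), 2466 were called lower (71.7%) and 1 was called higher. That gene was Ccn2, connective tissue growth factor, with 2478, 1763 and 1651 CPM in liraglutide atria against 768, 976 and 937 CPM in liraglutide infarcted LV (log2 fold change 1.14, adjusted p = 0.000582), and 664, 531 and 798 CPM in PBS atria against 1000.2, 876 and 906 CPM in PBS infarcted LV (log2 fold change −0.48, adjusted p = 0.0107). The PBS call for Ccn2 was lost with all 18 libraries in the fit and without infarcted replicate 1, and the difference between the 2 drugs' values, −1.62, did not pass (adjusted p = 0.0534).

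**Figure D5:**
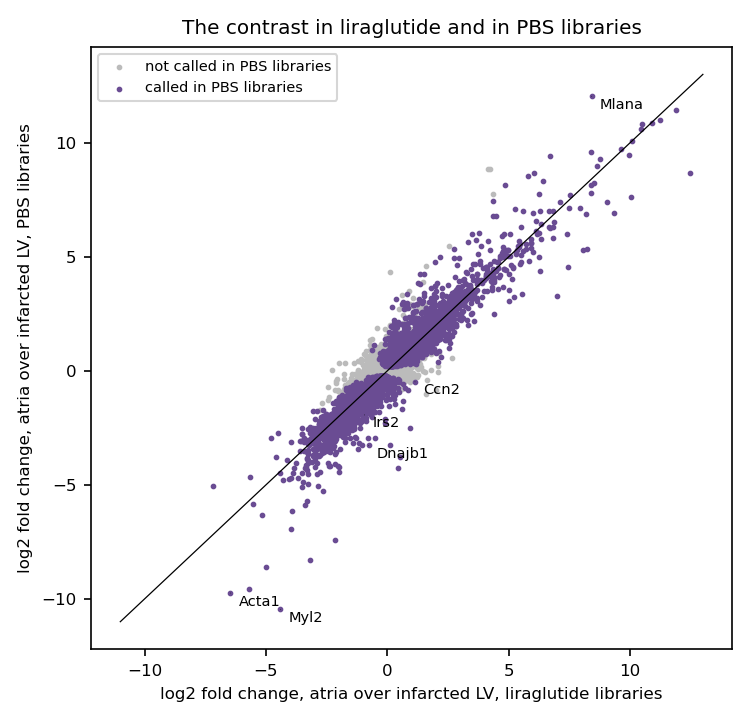
Log2 fold change of atria over infarcted LV in PBS mice (y axis) against that in liraglutide mice (x axis), each point a gene tested in both, purple where called in PBS mice. Most points follow the diagonal line of equal values, and Myl2 lies well to the right of it, with −10.46 in PBS mice and −4.41 in liraglutide mice.

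Lists repeated to different degrees under liraglutide. Atrial markers had a median of 3.87 there (15 higher and 1 lower of 17), ventricular markers −2.42 (1 higher and 10 lower of 13), respiratory chain subunits were lower for 21 of 24 and interferon genes for 13 of 15 with a median of −1.06. Neutrophil markers were 2 higher and 1 lower of 14 with a median of 1.10, and recruited monocyte markers 5 higher and 0 lower of 15 with a median of 0.78. Cytokines were 3 higher and 6 lower of 22, and their median was −0.55, against 0.61 in PBS mice. Heat shock chaperones were called in neither direction, 0 of 13, with a median of 0.27. Dnajb1 had 510.3, 209 and 50.3 CPM in liraglutide atria against 268, 399 and 641 CPM in liraglutide infarcted LV, groups that overlap (log2 fold change −0.77, adjusted p = 0.499). Liraglutide atrial replicate 1 was the highest and replicate 3 the lowest for Dnajb1 and likewise for Atf3, at 804, 383 and 105 CPM. For both genes the difference between the drugs' contrasts did not pass (adjusted p = 0.878 and 0.859). Whether whole lists differ between PBS and liraglutide was not tested. Myl2 in liraglutide atria was 302, 8.95 and 862 CPM, against 8852, 8652 and 7432 CPM in liraglutide infarcted LV, and did not pass there (adjusted p = 0.0549). The same replicates 1 and 3 also held more Acta1 (7.29 and 3.54 CPM, against 1.59 CPM in replicate 2), and the part of ventricular RNA in these values was not tested.

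The difference between the PBS and the liraglutide contrast was tested gene by gene over 12 libraries. It was called for 1 gene of 13748 (0.00727%), Irs2, an adaptor of the insulin receptor. Of the same 13748 genes, 738 had an unadjusted p below 0.05, near the share of 0.05 that this threshold passes where no gene differs. With DESeq2 19 genes were called and with voom 30. Irs2 had 122, 101 and 117 CPM in liraglutide atria against 203, 223 and 229.6 CPM in liraglutide infarcted LV (log2 fold change −0.94), and 51.6, 48.2 and 49.8 CPM in PBS atria against 202, 188 and 181 CPM in PBS infarcted LV (log2 fold change −1.93, adjusted p = 8.07e-09). The infarcted libraries of both drugs lie close together and the atrial ones do not overlap. The PBS value minus the liraglutide value was −0.98 (SE 0.132, adjusted p = 0.03), and the call was lost when any infarcted library, atrial PBS replicate 2 or atrial PBS replicate 3 was left out.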

How the data were processed

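Gene expression was measured by bulk RNA sequencing in mouse heart tissue. Per the labels' protocols, tissue was homogenized in TRIzol, and a TruSeq stranded kit for polyadenylated RNA was used. The authors' deposited table gives unnormalized whole-number counts, 1 row per gene symbol and 1 column for each of 18 libraries, and each column name matched 1 sample's label. Tools named in the submitters' processing notes are STAR 2.7.9a and DESeq2 without a version, with mm10 as the build. Neither the counting tool nor its use of strand or annotation is stated, so genes that overlap or share sequence may share reads.

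The counts were fitted in R 4.3.3 with edgeR 4.0.16 on the 6 libraries of the contrast: filterByExpr by group, TMM factors, and robust quasi-likelihood F tests, with 4 residual degrees of freedom. P-values were two-sided and adjusted by Benjamini-Hochberg across every gene that passed the filter, with a threshold of 0.05. Every adjusted p and log2 fold change is from such a fit, the interaction from 12 libraries. Standard errors follow from the log2 fold change and F. The fit was tested on simulated data. DESeq2 1.42.0 and voom with sample weights (limma 3.58.1), RLE factors, library totals alone, no filter, CPM of at least 1 in 3 libraries, all 18 libraries, a replicate block, a test against a log2 fold change of 1, and leaving out each replicate were alternatives. Libraries of a group differed beyond sampling noise (chi-square per degree of freedom at least 2.55), so each counts as 1 replicate. A fold against a group at 0 uses a floor of 3 counts per library.

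The contrast, the 36 gene lists (571 of 572 symbols in the table) and the tests were chosen with earlier results of these data known. Named genes are the 15 largest differences in each direction with no overlap and a mean of 50 counts or more, up to 5 members per list and direction by p, all members of the atrial, ventricular and myosin lists, and a few fixed genes; any other is marked. Gene coordinates are from GENCODE vM21 (GRCm38), promoters from RefSeq (GRCm38.p6). A few list members are not reported here by name.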

Additional observations from a re-analysis of the deposited data

Results flagged for a closer look

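The difference between atria and infarcted LV differed between PBS and liraglutide mice for Irs2, by the test of that difference in the main fit. This call was lost with all 18 libraries in the fit (adjusted p = 0.635), with the replicate block (0.141) and with library totals alone (0.11). It was also lost when any infarcted library was left out. The PBS log2 fold change minus the liraglutide one was −0.985, with 101 to 122 CPM in liraglutide atria and 48.2 to 51.6 CPM in PBS atria.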

How the results depend on the processing

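The 6925 calls between PBS atria and infarcted LV became 6216 with DESeq2, 7253 with voom, 6919 with RLE factors, 6832 with library totals alone, 7265 with no filter, 6913 with the stricter filter and 7374 with all 18 libraries; tested against a log2 fold change of 1 they were 1571. Leaving out a replicate gave 5717 to 7194 calls, and 4582 to 7202 under liraglutide. Same-numbered samples deviated together only weakly (correlations of 0.00299 to 0.145 in PBS mice). Weak correlations between tissues cannot decide whether same-numbered samples came from the same animal, and the main fit did not pair them. With a replicate block there were 7006 calls in PBS mice, 6741 of them among the main calls. The block gave 5724 calls under liraglutide and 0 for the drug difference. Calls for the drug difference (1) were 19 with DESeq2, 30 with voom, 2 with no filter, 0 with library totals alone, 0 with all 18 libraries, and 0 to 77 when a replicate was left out, with 77 without replicate 3 of the liraglutide atria and 11 without its replicate 2; the cause was not tested. Irs2 lost its call with library totals (adjusted p = 0.11), all 18 libraries (0.635) and the block (0.141), and with 8 of the 12 replicates left out, at differences of −0.90 to −1.02 in the settings that lost it. Cidea turned to −1.05 without atria PBS replicate 2 and ranged up to 0.905 without another replicate. Of 410 called genes that are list members or otherwise named, 342 were called under every alternative run for single genes, which leaves out the test against a log2 fold change of 1. Low genes such as Glp1r did not pass the filter and were not tested in the main fit.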
